A study of Mus musculus with 21 samples.

Results

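The primary cilium is a single antenna-like projection of the cell membrane built on a basal body, and the genes described here encode its transport machinery, its gate and proteins of its membrane and tip. The 49 genes were taken from the count table by their symbols. All 49 were found among its 23713 genes, and all passed the filter on low counts in each comparison. By role they were 11 genes of the intraflagellar transport complex IFT-B, 6 of IFT-A, 4 motor genes, 7 genes of the BBSome, 3 genes for BBSome assembly and recruitment, 13 transition zone genes and 5 genes of the ciliary membrane, tip and centriolar satellites.

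RNA was measured in keratinocytes, the cells of the epidermis, isolated from tail skin of 3 mouse models of basal cell carcinoma (BCC), SmoM2, Gnas-eKO and PKI, and of matched tumour-free control mice (Con). SmoM2 is an activated form of Smoothened, Gnas-eKO is named for loss of Gnas, which encodes the stimulatory G protein alpha subunit, and PKI is the name of a peptide inhibitor of protein kinase A. Each model had 3 Con and 4 BCC libraries, 21 in all, with collection at 29 days (SmoM2), 42 days (Gnas-eKO) or 57 days (PKI) from the start of tumour induction and in labelled batches A, B and C. Model, batch and day therefore cannot be told apart, so BCC was compared with Con within each model. The labels used here do not state the promoter or Cre driver, the PKI construct, the strain or the ages of the mice. The library IDs in the file headers begin with different letters in SmoM2 BCC and SmoM2 Con, with no meaning given for the letters, so whatever they mark and the tumour cannot be told apart in that model.

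Intraflagellar transport moves cargo along the ciliary axoneme. IFT-B acts mainly in travel to the tip with kinesin-2, IFT-A mainly in the return with dynein-2, and the BBSome carries membrane proteins out of the cilium. The transition zone at the ciliary base limits which proteins enter. In vertebrates Hedgehog signals are processed at the primary cilium, where Ptch1 and Smoothened trade places and Gli proteins are handled at the tip, and protein kinase A at the ciliary base restrains the Gli proteins.

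Library totals ranged from 16645858 to 22251132 counts, and 3 counts corresponded to at most 0.189 CPM (counts scaled to a common library size, adjusted by TMM) in any library. Mean levels of the 49 genes over the 21 libraries ran from 2.06 to 51.4 CPM with a median of 13.9. CPM is not scaled by gene length, so levels are compared between libraries and not between genes. The highest and lowest Con mean differed by under 1.5 times for 47 of the 49 genes, with Ift46 (1.68 times) and Ift80 (1.53 times) as the exceptions. Gnas averaged 174 ± 3.00 CPM (SD, n = 3) in the Con libraries of Gnas-eKO and 80.3 ± 28.1 CPM (SD, n = 4) in the BCC libraries, with all BCC libraries below all Con libraries (edgeR adjusted p = 0.0647). Smo went from a mean of 103 to 298 CPM in SmoM2 (edgeR adjusted p = 1.13e-06), whereas Pkia does not check the PKI label because it is not known whether reads of the construct are counted there. The BCC libraries of Gnas-eKO were uneven: the Hedgehog target gene Gli1 stood at 235, 9.64, 281 and 153 CPM in replicates 1 to 4, against 4.75 to 9.96 CPM in Con, so replicate 2 lay within the control range. Krt5 and Krt14, which define basal keratinocytes, were at no less than 7629 and 3856 CPM in any library. In bulk RNA, fewer cells of a type and less RNA per cell cannot be told apart.

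Kif7 and Tulp3 rose in all 3 models, as did 141 of the 15640 genes tested in every model (0.902%). Both encode proteins that act on Hedgehog signalling at the cilium: Kif7 is a kinesin of the ciliary tip that organises Gli proteins there, and Tulp3 is an adaptor that brings membrane proteins, among them the receptor Gpr161, into the cilium with the help of IFT-A. In Con, both were at similar levels in every model, and by the mean of the BCC libraries both were highest in SmoM2 and lowest in PKI, though Gnas-eKO BCC overlapped SmoM2 BCC. Their upstream sequences (RefSeq, build GRCm38.p6, the 250 bases before the start site, 5′ to 3′, minus strand) are shown because these are the members that moved in every model. Kif7 lies at chr7:79715708-79715957 and Tulp3 at chr6:128355852-128356101, and neither has capitals because none of the motifs searched for below matched.

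Kif7: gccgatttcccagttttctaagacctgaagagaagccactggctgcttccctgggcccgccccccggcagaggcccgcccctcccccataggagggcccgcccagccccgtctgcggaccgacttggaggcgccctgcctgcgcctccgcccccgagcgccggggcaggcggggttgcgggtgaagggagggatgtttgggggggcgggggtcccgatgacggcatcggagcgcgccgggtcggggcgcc

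Tulp3: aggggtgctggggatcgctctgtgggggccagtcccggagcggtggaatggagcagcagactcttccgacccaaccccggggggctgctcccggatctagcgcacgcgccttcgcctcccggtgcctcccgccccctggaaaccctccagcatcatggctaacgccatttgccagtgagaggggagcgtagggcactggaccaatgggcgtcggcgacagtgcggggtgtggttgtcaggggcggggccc

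Kif7 (GRCm38 chromosome 7, 79698098 to 79715720, minus strand) measured 10.1, 6.59 and 8.76 CPM in SmoM2 Con and 45.5, 46.2, 40.2 and 39.2 CPM in SmoM2 BCC (log2 fold change 2.34, SE 0.15, edgeR adjusted p = 4.96e-06). The Gnas-eKO values were 11.4, 9.05 and 10.5 CPM in Con and 40.0, 25.3, 25.5 and 56.3 CPM in BCC (log2 fold change 1.84, SE 0.30, edgeR adjusted p = 0.0326). PKI had 8.96, 8.46 and 7.98 CPM in Con and 14.5, 16.7, 21.8 and 21.9 CPM in BCC (log2 fold change 1.16, SE 0.17, edgeR adjusted p = 0.0011). No BCC library overlapped the Con libraries of its model, and the highest PKI BCC library lay below the lowest SmoM2 BCC library. Exons of Kif7 overlap those of Ticrr and 9330171B17Rik on the other strand, and whether counting used the strand is not given in the sources used here.

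Tulp3 (GRCm38 chromosome 6, 128321161 to 128355851, minus strand) had 19.2, 20.4 and 20.2 CPM in SmoM2 Con and 109, 105, 94.7 and 103 CPM in SmoM2 BCC (log2 fold change 2.38, SE 0.08, edgeR adjusted p = 1.37e-07). In Gnas-eKO it had 26.0, 23.6 and 22.5 CPM in Con and 74.2, 54.5, 58.2 and 99.1 CPM in BCC (log2 fold change 1.58, SE 0.22, edgeR adjusted p = 0.0209). In PKI it had 27.5, 22.8 and 19.6 CPM in Con and 44.0, 45.8, 43.0 and 44.0 CPM in BCC (log2 fold change 0.93, SE 0.11, edgeR adjusted p = 0.000482). The SmoM2 and PKI BCC groups were each tight, while the Gnas-eKO BCC libraries spread widely, with replicate 4 highest for both genes. In Gnas-eKO both calls were lost without any 1 of the Con libraries or without BCC replicate 1, with edgeR adjusted p of 0.0875 to 0.179 for Kif7 and 0.0634 to 0.149 for Tulp3. Over all genes, 0 passed without Con replicate 1 or 2, and 3 were higher and 1 lower without Con replicate 3. Without BCC replicate 1, 35 of all genes were higher and 3 lower. The SmoM2 and PKI calls of both genes held in every fit that left out 1 library.

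**Figure D1:**
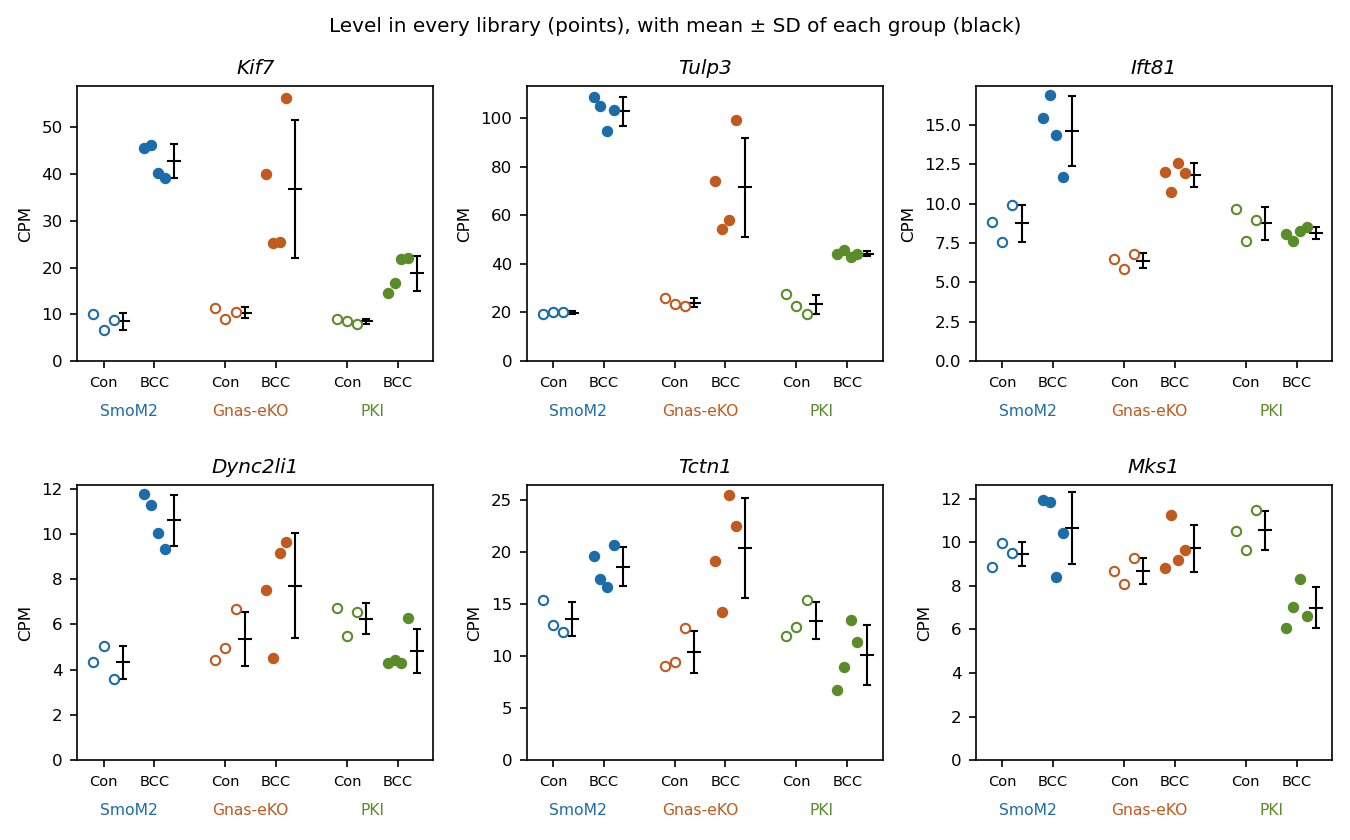
CPM (vertical axis, from 0) of 6 cilium genes in every library of SmoM2, Gnas-eKO and PKI; open points are Con, filled points are BCC, and black marks give the mean ± SD of each group. Kif7 and Tulp3 lay above Con in all BCC libraries of the 3 models, whereas Dync2li1 was above Con in SmoM2 (9.32 to 11.7 CPM) and Mks1 was below Con in PKI (6.05 to 8.32 CPM).

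In SmoM2, 24 of the 49 cilium genes rose and 1 fell, Ift20, against a background of 29.7% of all genes called (16.2% higher and 13.5% lower). The median log2 fold change of the 49 genes was 0.39, beside 0.00054 over the 16370 genes tested, and 45 of the 49 had a positive value. In 26 genes every BCC library lay above every Con library, a pattern shown by 19.6% of all genes tested. By role, 11 of 21 transport genes, 2 of 10 BBSome and BBSome helper genes, 8 of 13 transition zone genes and 3 of 5 genes of the membrane, tip and satellite group rose. Set against the Con mean, the median gene was higher by 0.48 and 0.49 on the log2 scale in BCC replicates 1 and 2 and by 0.28 and 0.27 in replicates 3 and 4.

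Of the IFT-B genes, 4 of 11 rose in SmoM2: Ift27, Ift57, Ift80 and Ift81. Ift27, a small GTPase that also helps the BBSome leave the cilium, had 7.44, 6.25 and 7.19 CPM in Con and 14.2, 13.7, 12.3 and 12.6 CPM in BCC (log2 fold change 0.94, SE 0.13, edgeR adjusted p = 0.000474). Ift57 had 9.00, 7.11 and 5.30 CPM in Con and 13.1, 12.2, 14.9 and 14.6 CPM in BCC (0.95, SE 0.18, edgeR adjusted p = 0.00339). All BCC libraries of both genes lay above all Con libraries. Ift80 went from 14.7, 20.7 and 16.4 CPM to 33.3, 39.6, 28.4 and 24.4 CPM (0.88, SE 0.18, edgeR adjusted p = 0.00592). Ift81, whose protein binds tubulin together with Ift74, went from 8.82, 7.57 and 9.89 CPM to 15.5, 16.9, 14.3 and 11.7 CPM (0.75, SE 0.16, edgeR adjusted p = 0.00564). In both, BCC replicate 4 was the lowest of the BCC libraries and still above Con. Ift20, which also acts at the Golgi, was the member that fell, from 45.0, 54.3 and 55.2 CPM to 37.3, 34.6, 38.7 and 35.1 CPM (−0.48, SE 0.09, edgeR adjusted p = 0.00326, and 0.111 in the joint fit). Ift88, a core subunit needed to build cilia, had 22.6, 21.0 and 20.0 CPM in Con and 23.9, 26.4, 21.4 and 23.5 CPM in BCC and did not pass (0.18, edgeR adjusted p = 0.204). Ift172 overlapped between the groups as well (0.34, edgeR adjusted p = 0.137).

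Of the 6 IFT-A genes, 5 rose in SmoM2: Ift43, Ift122, Wdr19, Wdr35 and Ttc21b, with log2 fold changes of 0.41 for Wdr35 to 0.74 for Ift43. The Wdr35 call was lost without Con replicate 3 or BCC replicate 1 or 2 (edgeR adjusted p of 0.0559 to 0.0641). Ift43 had 13.2, 14.2 and 10.3 CPM in Con and 20.5, 20.8, 21.7 and 20.2 CPM in BCC (SE 0.12, edgeR adjusted p = 0.00153), so the BCC libraries lay close together and above Con. Wdr19 had 11.1, 9.80 and 8.92 CPM in Con and 14.1, 18.9, 15.5 and 13.3 CPM in BCC (0.65, edgeR adjusted p = 0.00916). Ttc21b had 11.4, 10.1 and 9.03 CPM in Con and 17.8, 20.4, 13.6 and 14.2 CPM in BCC (0.71, edgeR adjusted p = 0.0101). The remaining IFT-A gene, Ift140, had a value of 0.18 (edgeR adjusted p = 0.170). Among the motors, Dync2li1, a light intermediate chain of dynein-2, rose most, from 4.36, 5.05 and 3.57 CPM to 11.7, 11.3, 10.0 and 9.32 CPM (1.31, SE 0.17, edgeR adjusted p = 0.000346). Its BCC libraries were all well above Con, while Dync2h1, the heavy chain of the same motor, overlapped between groups (0.24, edgeR adjusted p = 0.245). Kif3a, a motor subunit of kinesin-2, had 15.7, 16.2 and 15.7 CPM in Con and 18.9, 20.9, 19.5 and 17.5 CPM in BCC (0.29, edgeR adjusted p = 0.0470), a call that was lost under DESeq2's size factors, without a filter, in the joint fit, with the replicate block and in 6 of the 7 fits without 1 library (edgeR adjusted p of 0.0504 to 0.135). Its partner Kif3b had a value of 0.04 (edgeR adjusted p = 0.802).

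Of the 7 BBSome subunits 1 rose in SmoM2, Bbs9. Bbs9 had 13.5, 13.5 and 11.1 CPM in Con and 22.0, 22.7, 23.9 and 19.5 CPM in BCC (log2 fold change 0.81, SE 0.11, edgeR adjusted p = 0.000633), all BCC above all Con. The other subunits ran from −0.32 for Bbs2 to 0.39 for Bbs1 without passing. Arl6, the small GTPase that recruits the BBSome to membranes, rose from 13.3, 11.4 and 10.4 CPM to 21.8, 20.3, 18.1 and 17.4 CPM (0.74, SE 0.13, edgeR adjusted p = 0.00189). Bbs10 and Bbs12, chaperonin-like proteins that assemble the BBSome, did not pass (0.58 and 0.33, edgeR adjusted p = 0.159 and 0.272).

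In the transition zone 8 of 13 genes rose in SmoM2: the 3 tectonic genes Tctn1, Tctn2 and Tctn3, the membrane proteins Tmem67, Tmem216 and Tmem231, and the B9 domain genes B9d1 and B9d2. Their log2 fold changes ran from 0.46 for Tctn2 to 0.79 for Tmem231, and in each of the 8 every BCC library lay above every Con library. Tmem231 had 8.45, 8.26 and 8.27 CPM in Con and 16.2, 14.1, 14.7 and 12.1 CPM in BCC (SE 0.13, edgeR adjusted p = 0.0014). Tmem216 had 8.13, 6.36 and 6.65 CPM in Con and 13.5, 11.4, 8.79 and 11.3 CPM in BCC (0.69, edgeR adjusted p = 0.0136), with BCC replicate 3 close to the highest Con library. Tctn1 had 15.4, 13.0 and 12.3 CPM in Con and 19.6, 17.4, 16.6 and 20.6 CPM in BCC (0.47, edgeR adjusted p = 0.0184). The calls of Tmem231 and B9d1 held in every fit without 1 library. With the replicate block, which groups libraries that share only a number, the calls of Tctn2, Tmem67, B9d1 and B9d2 were lost (edgeR adjusted p of 0.0575 to 0.0799). In the joint fit those of Tctn1, Tmem67 and B9d1 were lost (edgeR adjusted p of 0.0614 to 0.133). The 6 calls other than those of Tmem231 and B9d1 were lost without Con replicate 2 (edgeR). Tctn1, Tctn2, Tctn3 and Tmem67 were also lost without BCC replicate 1 and 1 to 3 further libraries, with edgeR adjusted p of 0.0501 to 0.151 over all fits without 1 library. The 5 genes that did not pass were Mks1, Cc2d2a, Tmem107, Rpgrip1l and Cep290, with values of −0.12 for Cep290 to 0.33 for Rpgrip1l. Mks1, Cc2d2a, Rpgrip1l and Cep290 encode scaffold proteins of the gate and Tmem107 a membrane protein.

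Besides Kif7 and Tulp3, Arl13b rose in the membrane, tip and satellite group. Arl13b, a small GTPase of the ciliary membrane, had 35.6, 40.3 and 34.3 CPM in SmoM2 Con and 55.6, 54.6, 53.8 and 48.6 CPM in BCC (0.55, SE 0.08, edgeR adjusted p = 0.00109), with no overlap. Inpp5e, the phosphoinositide phosphatase that Arl13b helps to place in the cilium, had a value of 0.11 (edgeR adjusted p = 0.349). Ofd1, a centriolar protein, had a value of −0.08 (edgeR adjusted p = 0.643).

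**Figure D2:**
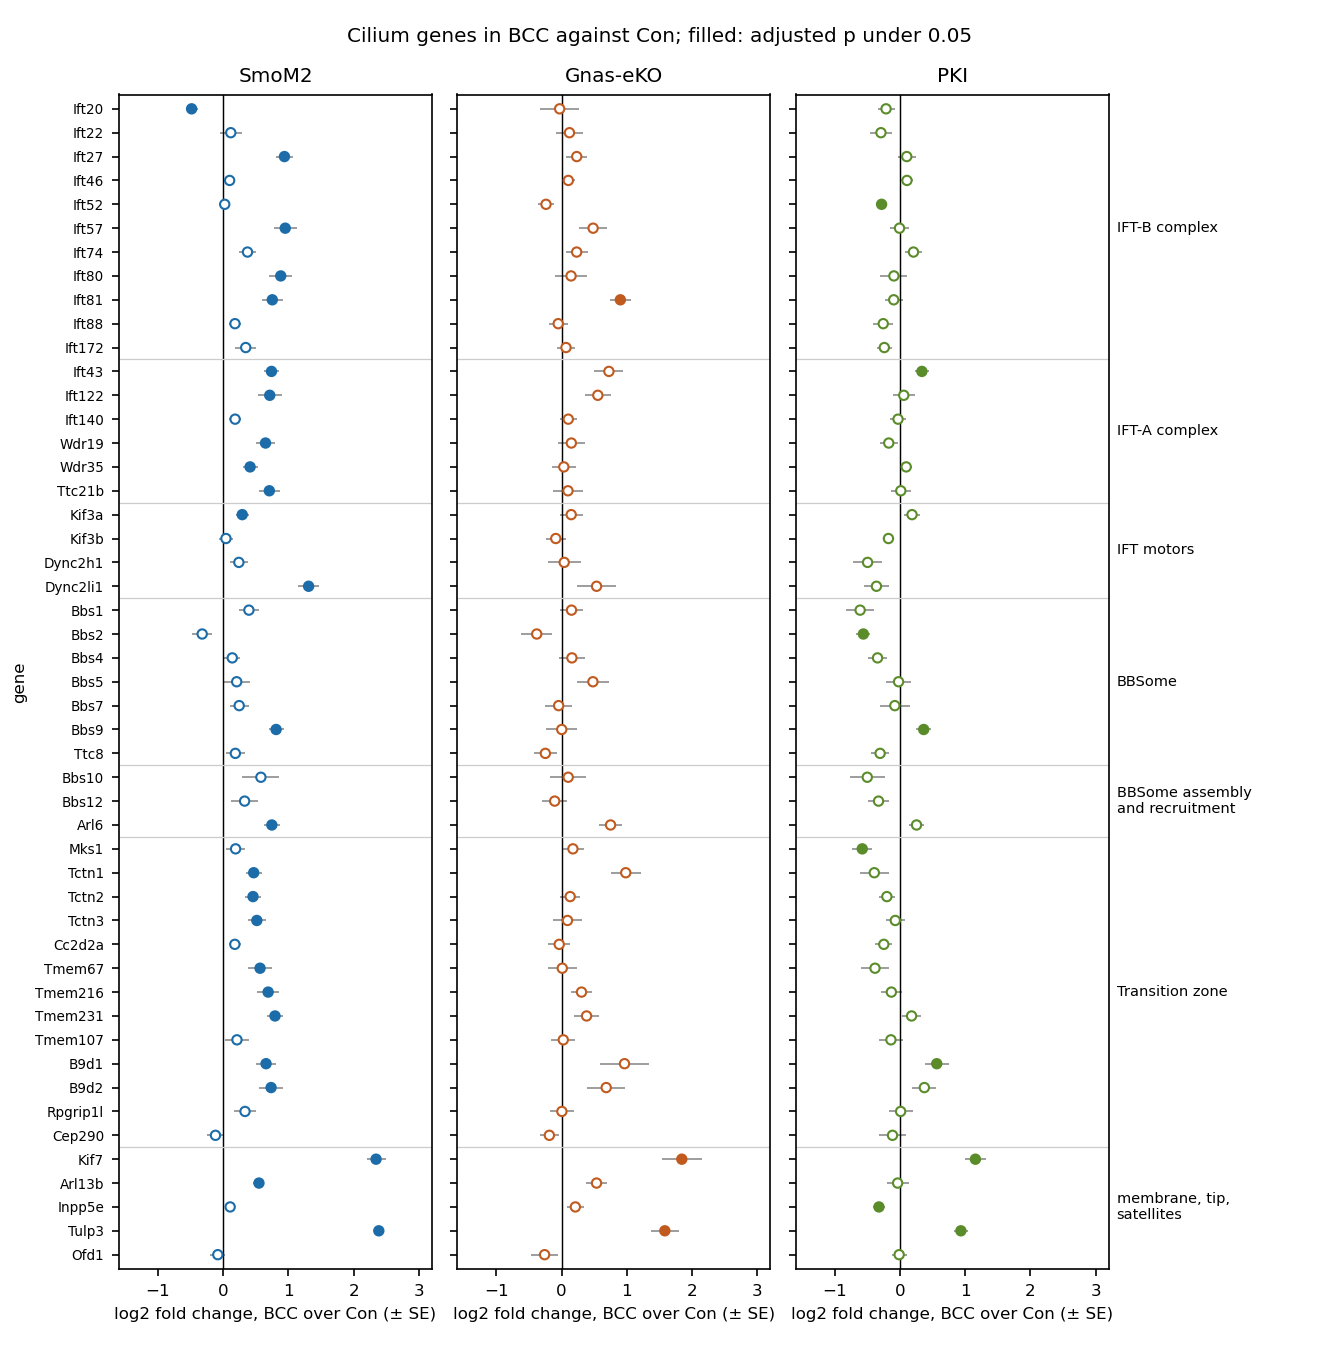
Log2 fold change of BCC over Con (horizontal axis, ± SE) for each of the 49 genes, in rows grouped by role, in SmoM2, Gnas-eKO and PKI; filled points have an adjusted p under 0.05. In SmoM2 45 of 49 points lie right of 0, and in PKI 33 of 49 lie left of it.

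In Gnas-eKO, 3 of the 49 cilium genes rose, Kif7, Tulp3 and Ift81, and 0 fell by edgeR, where 1.63% of all genes were called (1.46% higher and 0.165% lower). An unadjusted edgeR p under 0.05 was found for 10 of the 49, beside 3212 of all 16409 genes. The median log2 fold change was 0.13, beside 0.02 over the 16409 genes tested, and 38 of 49 values were positive. In 11 genes every BCC library lay above every Con library, against 9.97% of all genes tested, and in 1 every BCC library lay below, against 9.7%. Ift81 had 6.48, 5.86 and 6.79 CPM in Con and 12.0, 10.8, 12.6 and 12.0 CPM in BCC (0.90, SE 0.16, edgeR adjusted p = 0.0371). All its BCC libraries, replicate 2 included, were alike and well above Con. The call was lost with the replicate block (edgeR adjusted p = 0.127) and without any 1 Con library or BCC replicate 1 or 4 (edgeR adjusted p of 0.101 to 0.205). Over all genes, 0 passed without Con replicate 1 or 2, and 3 were higher and 1 lower without Con replicate 3. These losses therefore do not set Ift81 apart from other genes. Several genes that rose in SmoM2 were separated here without passing. Tctn1 had 9.02, 9.38 and 12.7 CPM in Con and 19.1, 14.3, 25.4 and 22.5 CPM in BCC (0.98, edgeR adjusted p = 0.072). Arl6 had 10.3, 10.1 and 12.8 CPM in Con and 18.4, 14.7, 20.4 and 20.2 CPM in BCC (0.75, edgeR adjusted p = 0.0715). In both genes replicate 2 was the lowest BCC library. Dync2li1 had 7.52, 4.50, 9.14 and 9.66 CPM in BCC and 4.41, 4.97 and 6.69 CPM in Con (0.54, edgeR adjusted p = 0.362), so replicate 2 fell inside the Con range. B9d1 and Ift43 were highest in BCC replicate 3, at 12.7 and 31.5 CPM, with 4.61 to 6.76 and 16.4 to 22.0 CPM in the other BCC libraries.

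The number of calls in Gnas-eKO turned on single libraries, over all genes as among the members. It was 8 members without BCC replicate 2 and 0 without Con replicate 1, 2 or 3 or BCC replicate 1 (edgeR). Without BCC replicate 2, 1192 of all 16195 genes were called higher and 718 lower. Over all genes 0 passed without Con replicate 1 or 2. Without Con replicate 3, 3 of 16872 genes were higher and 1 lower, and without BCC replicate 1, 35 of 16067 were higher and 3 lower. DESeq2's Wald test called 6 of the 49 genes, beside 1113 higher and 422 lower of all 16409. A joint fit of the 21 libraries, which takes 1 spread for all groups, called 9, beside 1573 higher and 1071 lower of all 17695.

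In PKI, 5 cilium genes rose and 4 fell, against a background of 34.5% of all genes called (18.7% higher and 15.8% lower) and 18.4% of the members. The median log2 fold change was −0.10, beside −0.0012 over the 16397 genes tested, and 33 of the 49 values were negative. In 6 genes every BCC library lay above every Con library (22.4% of all genes) and in 10 every BCC library lay below (20.8% of all genes). The genes that rose were Kif7, Tulp3, B9d1, Bbs9 and Ift43. B9d1 had 3.29, 4.17 and 3.84 CPM in Con and 5.08, 5.78, 5.03 and 6.20 CPM in BCC (0.56, SE 0.18, edgeR adjusted p = 0.0382). Bbs9 had 10.5, 9.66 and 9.12 CPM in Con and 11.7, 13.6, 12.2 and 12.3 CPM in BCC (0.36, SE 0.12, edgeR adjusted p = 0.0399). Ift43 had 15.6, 16.0 and 16.0 CPM in Con and 23.1, 19.1, 18.1 and 19.0 CPM in BCC (0.34, SE 0.11, edgeR adjusted p = 0.0426). The 3 genes did not overlap between groups and had also risen in SmoM2, but their PKI calls were lost without a low-count filter, in the joint fit, with the replicate block and without any 1 of Con replicates 1, 2 and 3 or BCC replicates 1, 2 and 4, with edgeR adjusted p of 0.0524 to 0.145, and for Bbs9 also without BCC replicate 3 (0.0619).

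The genes that fell in PKI were Ift52, Bbs2, Mks1 and Inpp5e, and in each every BCC library lay below every Con library. Bbs2, a core subunit of the BBSome, had 22.3, 22.4 and 21.0 CPM in Con and 12.7, 15.0, 15.3 and 15.8 CPM in BCC (−0.56, SE 0.11, edgeR adjusted p = 0.00368), a call that held in every fit without 1 library. Mks1 had 10.5, 9.66 and 11.5 CPM in Con and 6.05, 7.02, 8.32 and 6.63 CPM in BCC (−0.58, SE 0.15, edgeR adjusted p = 0.0164, and 0.0668 without Con replicate 3). Inpp5e had 30.2, 29.8 and 28.9 CPM in Con and 21.8, 21.9, 25.1 and 25.2 CPM in BCC (−0.32, SE 0.09, edgeR adjusted p = 0.0213, and 0.0521 to 0.0665 without any 1 Con library). Ift52, an IFT-B core subunit, had 53.9, 57.0 and 55.6 CPM in Con and 40.7, 47.5, 46.2 and 46.8 CPM in BCC (−0.28, edgeR adjusted p = 0.0253, and 0.0744 to 0.0897 without Con replicate 2 or 3). In Gnas-eKO, Ift52 and Bbs2 had values of −0.24 and −0.38 without passing, and Mks1 and Inpp5e of 0.17 and 0.21. The changes of Ift52 and Bbs2 did not pass as different between PKI and Gnas-eKO (edgeR adjusted p = 0.889 and 0.722). Inpp5e shares exonic sequence with Pmpca on the other strand. Of the transport genes, 1 of 21 rose and 1 fell in PKI. The motors passed in neither direction by edgeR, with Dync2h1 at −0.50 (edgeR adjusted p = 0.110). An unadjusted p under 0.05 was found for 1 of the 4 motors, beside 7326 of all 16397 genes. BBSome subunits were mostly negative: Bbs1 had 7.34, 8.96 and 10.4 CPM in Con and 4.46, 4.85, 6.72 and 7.13 CPM in BCC (−0.61, edgeR adjusted p = 0.051), and Bbs4 had a value of −0.34 (edgeR adjusted p = 0.105). BCC replicates 1 and 2 were the lowest for Bbs1, and they were lowest over the genes as a whole, with a median gene at −0.26 and −0.19 on the log2 scale against the Con mean, beside 0.02 and −0.03 in replicates 3 and 4. The number of members called in PKI fell to 4 without Con replicate 2 and to 3 without Con replicate 3. Calls over all genes fell too, from 3063 higher and 2590 lower of 16397 with all libraries. They were 2221 and 1836 of 16855 without Con replicate 2 and 2337 and 1864 of 16812 without Con replicate 3.

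**Figure D3:**
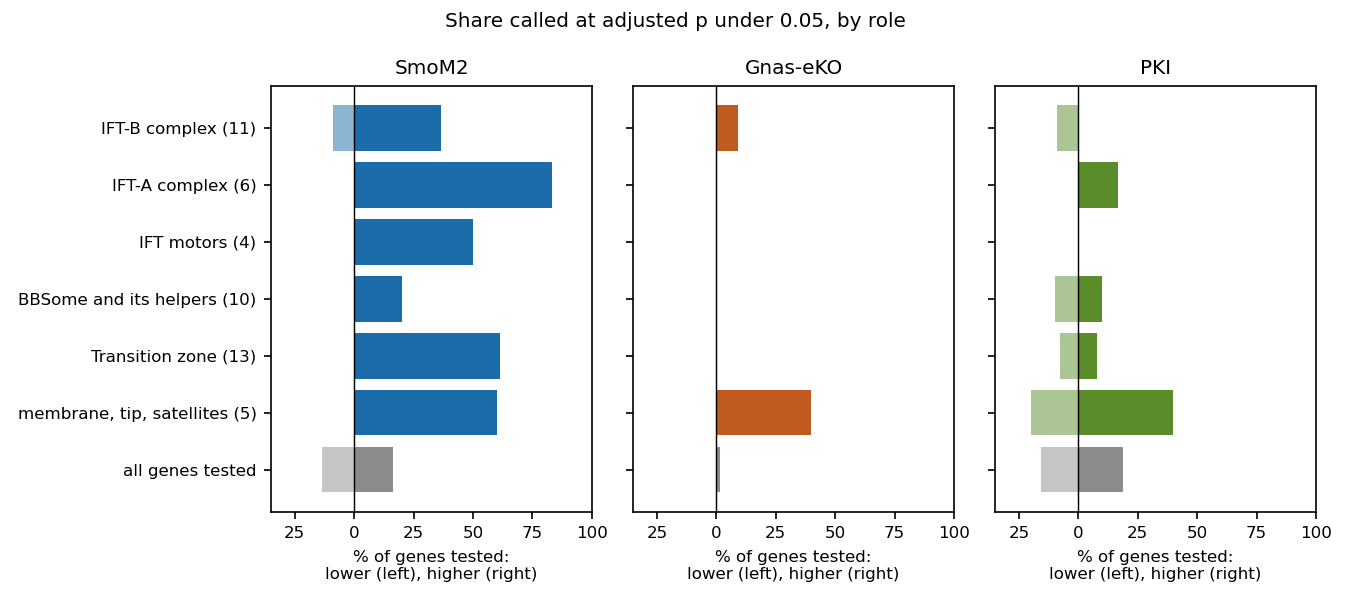
Percent of genes called at an adjusted p under 0.05 (horizontal axis), lower to the left in pale bars and higher to the right, for each role with its number of genes, and in grey for all genes tested, in the 3 models. In SmoM2 the bar for IFT-A reaches 83.3%, beside 16.2% of all genes called higher.

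**Figure D4:**
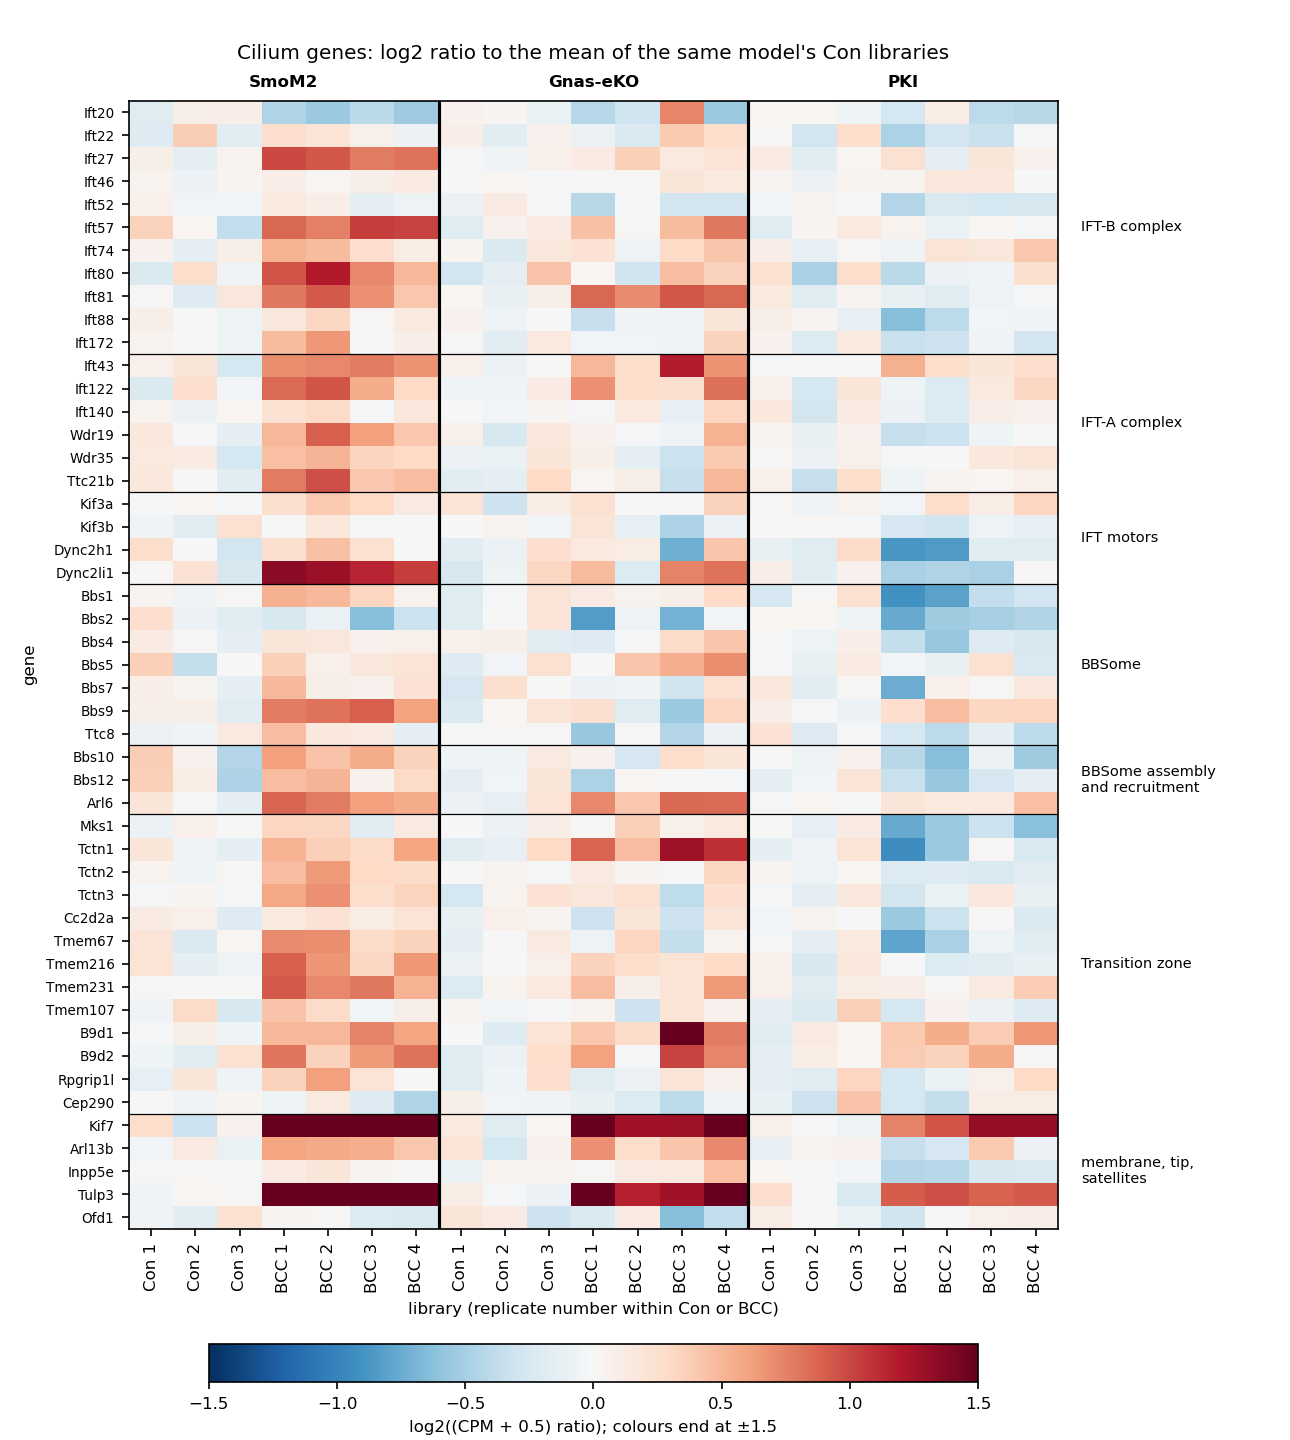
Log2 ratio of CPM + 0.5 to the mean of the same model's Con libraries, for 49 genes in rows and 21 libraries in columns; red is higher and blue lower than Con, with colours ending at 1.5 in either direction. Kif7 and Tulp3 are red in all BCC libraries, SmoM2 BCC replicates 1 and 2 are red over 46 and 47 of the 49 genes, and PKI BCC replicate 1 is above the Con mean in 11.

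The 3 models have no control libraries in common, and the difference between their changes was tested. Model, batch and day cannot be told apart in these differences. Nor can the tumour and whatever the library ID letters mark in SmoM2. The BCC effect was lower in PKI than in SmoM2 for 45 of the 49 genes, and the difference passed for 22 of them, all lower in PKI, where 24.9% of all genes were called (12.6% higher and 12.3% lower). These were 7 of 21 transport genes, 4 of 10 BBSome and BBSome helper genes, 7 of 13 transition zone genes and 4 of 5 genes of the membrane, tip and satellite group. Dync2li1 differed most, with 1.31 in SmoM2 and −0.36 in PKI (difference −1.67, SE 0.25, edgeR adjusted p = 0.000362). In PKI it had 6.73, 5.49 and 6.54 CPM in Con and 4.31, 4.44, 4.31 and 6.30 CPM in BCC, so BCC replicate 4 alone reached the Con range. Tulp3 differed by −1.45 (SE 0.13, edgeR adjusted p = 9.33e-06) and Kif7 by −1.18 (SE 0.22, edgeR adjusted p = 0.00191), although both rose in each model. Ift57 (−0.95, edgeR adjusted p = 0.00767), Ift27 (−0.83, edgeR adjusted p = 0.00397) and Ift81 (−0.85, edgeR adjusted p = 0.00777) rose in SmoM2 and had values of −0.01, 0.10 and −0.10 in PKI. Bbs1 (−1.0, edgeR adjusted p = 0.0128), Bbs10 (−1.08, edgeR adjusted p = 0.0472), Mks1 (−0.77, edgeR adjusted p = 0.0154) and Inpp5e (−0.43, edgeR adjusted p = 0.0119) differed with no call in SmoM2. The count of 22 fell to 14 without SmoM2 Con replicate 3 or PKI BCC replicate 2, and to 11 without PKI Con replicate 3. Over all genes, 2181 were called higher and 2119 lower of 17261 with all libraries. Without SmoM2 Con replicate 3 these were 1848 and 1898 of 17738, and without PKI BCC replicate 2 1807 and 1780 of 17159. Without PKI Con replicate 3 they were 1706 and 1695 of 17728. Bbs10 passed in 2 of the 14 fits without 1 library. Under other settings 8 of the 22 differences were lost at least once, those of Ttc21b, Bbs9, Bbs10, Arl6, Tctn1, Tctn3, Tmem231 and Arl13b, with edgeR adjusted p of 0.0525 to 0.217 without a filter, in the joint fit or with the replicate block. Of the 22 differences, 11 passed in each of the 14 fits without 1 library: Ift27, Ift57, Ift81, Wdr19, Dync2li1, Bbs1, Mks1, Tctn2, Kif7, Inpp5e and Tulp3.

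**Figure D5:**
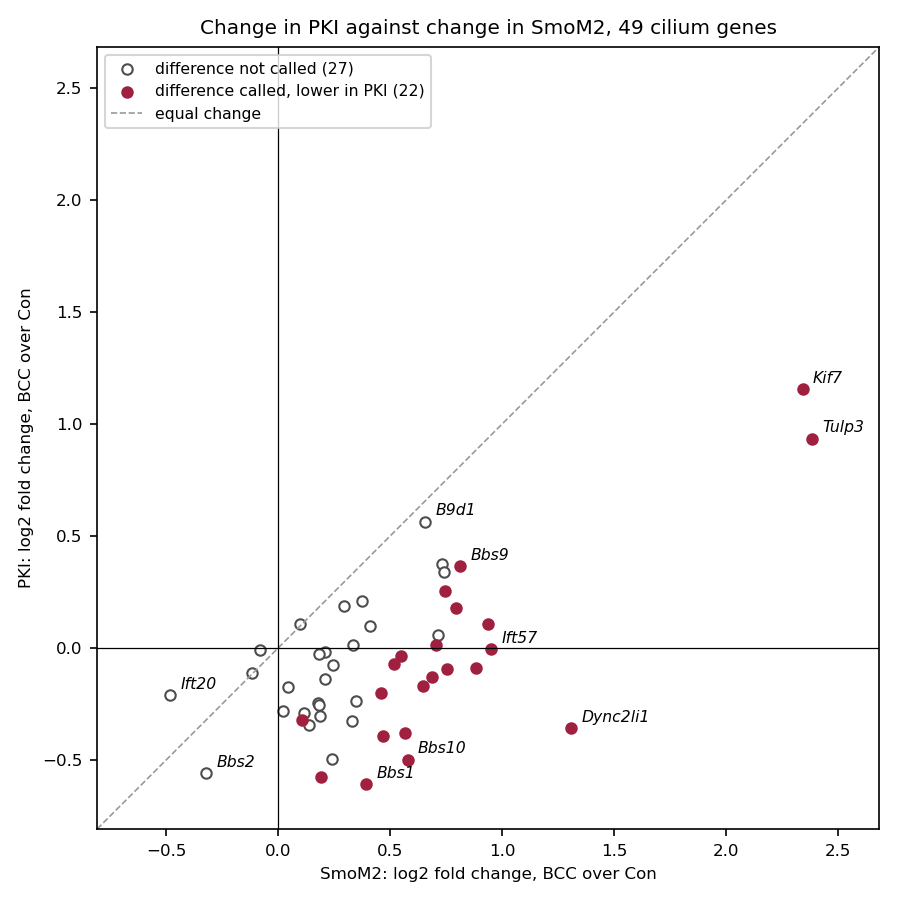
Log2 fold change of BCC over Con in PKI (vertical axis) against that in SmoM2 (horizontal axis) for the 49 genes; filled points are the 22 genes whose difference passed, and the dashed line marks equal change. In all, 45 of 49 points lie below the line.

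Between PKI and Gnas-eKO the difference passed for 4 members, all lower in PKI: Tctn1 (−1.38, edgeR adjusted p = 0.0217), Ift81 (−0.99, edgeR adjusted p = 0.00695), Mks1 (−0.75, edgeR adjusted p = 0.0389) and Inpp5e (−0.53, edgeR adjusted p = 0.0463), where 9.06% of all genes were called (4.49% higher and 4.57% lower). Tctn1 in PKI had 12.0, 12.8 and 15.4 CPM in Con and 6.72, 8.92, 13.4 and 11.3 CPM in BCC, an overlapping pair of groups, while its Gnas-eKO groups were apart. The Ift81 difference held in every fit that left out 1 library, whereas the count fell to 1 or 2 without Gnas-eKO Con replicates 1, 2 or 3, Gnas-eKO BCC replicate 4, any PKI Con library or PKI BCC replicates 1, 2 or 4. Over all genes those fits called 344 to 746 higher and 329 to 708 lower, beside 775 and 789 with all libraries. The Tctn1 difference was lost without Gnas-eKO Con replicate 1 or 2 or PKI Con replicate 3 (edgeR adjusted p of 0.0621 to 0.065). The Mks1 and Inpp5e differences were each lost in 11 of the 14 fits without 1 library, without a filter and with the replicate block (edgeR adjusted p of 0.0501 to 0.141), and Inpp5e also in limma (adjusted p = 0.0546). Between Gnas-eKO and SmoM2 0 members differed by edgeR, where 0.175% of all genes were called (0.0758% higher and 0.0991% lower). An unadjusted edgeR p under 0.05 was found for 5 members, beside 1499 of all 17151 genes. DESeq2's Wald test called 1 member, beside 104 higher and 108 lower of all genes. Across the 49 genes, Pearson's r of the changes was 0.81 between SmoM2 and Gnas-eKO, 0.678 between SmoM2 and PKI and 0.686 between Gnas-eKO and PKI. Without Kif7 and Tulp3 these were 0.615, 0.37 and 0.42 over 47 genes. These describe genes measured in the same libraries, which are not independent replicates.

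Other cilium genes were read from lists that hold none of the 49. Of 14 further IFT and motor genes 2 rose in SmoM2, Ttc26 (0.65) and Rabl2 (0.54), and Dynlrb1 fell (−0.26), with a median of 0.01; in PKI 1 rose and 2 fell. Of 18 further transition zone genes 5 rose in SmoM2, among them Nphp4 (1.31) and Fam92a (0.81), and in PKI Iqcb1 fell (−0.74). Of 20 basal body and distal appendage genes 3 rose in SmoM2 and 2 rose and 1 fell in PKI. For SmoM2 these counts stand beside 16.2% of all genes called higher and 13.5% lower, and for PKI beside 18.7% and 15.8%. Of 5 further BBSome genes tested 2 rose in SmoM2 and 1 in PKI. The IFT and motor, transition zone, basal body and BBSome lists had 0 calls in Gnas-eKO by edgeR (2, 0, 1 and 2 genes at an unadjusted p under 0.05). There 1.63% of all genes were called, and 3212 of 16409 had an unadjusted p under 0.05. Of 10 Hedgehog regulators at the cilium, 7 rose in SmoM2, 3 rose in Gnas-eKO (1.46% of all genes), and 2 rose and 1 fell in PKI, which is close to the 18.7% and 15.8% of all genes there. Evc, a ciliary protein that passes on the Smoothened signal, rose in each model (1.30, 0.96 and 0.70 in SmoM2, Gnas-eKO and PKI; edgeR adjusted p = 0.000256, 0.0428 and 0.00748), and Gpr161, the receptor that Tulp3 delivers, rose in SmoM2 (1.02, edgeR adjusted p = 0.000578) with values of 0.85 in Gnas-eKO (edgeR adjusted p = 0.0507) and 0.12 in PKI (edgeR adjusted p = 0.602).

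Genes of other processes and cell types moved in the same libraries. All 10 proliferation genes rose in PKI, from a summed level of 711 to 815 CPM in Con to 1260 to 1390 CPM in BCC. Of the 10, 1 fell in SmoM2 and 0 passed in Gnas-eKO by edgeR (2 at an unadjusted p under 0.05, beside 3212 of all 16409 genes). Of 11 genes of cilium disassembly, 4 rose in PKI (Aurka, 1.13, Nek2, 0.79, Kif24 and Plk1), beside 18.7% of all genes. In SmoM2 3 of the 11 rose (Hdac6, Kdm3a and Nedd9), beside 16.2% of all genes, and Kif2a fell. Leukocyte markers rose in PKI in 7 of 8 genes, from a summed level of 43.8 to 114 CPM to 249 to 484 CPM, with Ptprc at 11.0 to 20.0 CPM in BCC. Fibroblast markers summed to 17.1 to 39.8 CPM in SmoM2 Con and 387 to 525 CPM in SmoM2 BCC, 15.9 to 27.7 and 94.6 to 579 CPM in Gnas-eKO, and 15.9 to 43.6 and 84.6 to 145 CPM in PKI. In SmoM2 BCC 362 to 500 CPM of that sum was Dcn alone, while Col1a1 was at 1.16 to 3.66 CPM. Summed keratinocyte markers were lower in BCC than in Con in SmoM2 (37300 to 52100 against 55500 to 72100 CPM) and in Gnas-eKO (28400 to 49200 against 56300 to 67300 CPM) and overlapped in PKI. That sum is mostly abundant keratins, and single markers differed: in SmoM2 Krt5, Krt14, Krt10 and Dsp fell while Dsg3 and Trp63 rose, and in PKI Krt5 and Dsp fell while Dsg3 and Krt1 rose. Melanocyte markers fell in PKI in 4 of 5 genes (Dct, Mitf, Pmel and Tyrp1), from a summed level of 155 to 203 CPM in Con to 78.6 to 122 CPM in BCC, and overlapped between groups in SmoM2 and Gnas-eKO. Endothelial markers were low, with summed levels of 1.33 to 3.24 CPM in Con and 3.32 to 5.36 CPM in BCC of SmoM2, and 1.51 to 4.05 and 4.36 to 6.57 CPM in PKI, and Vwf rose in both. Nerve and Schwann cell markers summed to 53.7 to 62.7 CPM in SmoM2 Con and 46.6 to 51.0 CPM in SmoM2 BCC, where Mbp fell. The 5 sebaceous gland markers had negative values in PKI (median −0.87), of which Mgst1 fell, and their sums overlapped between groups in each model. The part of these genes in the changes of the cilium genes was not tested.

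Rfx factors bind the X-box, a DNA motif found before many cilium genes. Of 7 Rfx genes tested 2 rose in SmoM2, Rfx3 and Rfx5 (0.34), with a median of 0.10 and 2 negative values, beside 16.2% of all genes called higher. Rfx3 went from 3.90, 4.99 and 4.32 CPM to 11.6, 13.3, 11.4 and 10.4 CPM (1.42, SE 0.15, edgeR adjusted p = 0.000119). It had values of 1.13 in Gnas-eKO (edgeR adjusted p = 0.101) and 0.58 in PKI (edgeR adjusted p = 0.122) without passing, and Gnas-eKO BCC replicate 2 was the lowest of its group at 5.52 CPM. RefSeq start-site windows of 300 bases (250 before and 50 after the start, both strands searched, GRCm38.p6) were found for 44 of the 49 genes, all but Ift80, Ift81, Ift122, Dync2li1 and Tmem67. The full X-box (GTTNCC, any 2 bases, then GGNAAC) was in 3 of 44 genes (Bbs7, Mks1 and Tctn1; 6.82%), beside 0.608% of 11021 tested genes with a window and 0.451% of all 32851 windows. A looser form (GTTNCC, any 3 bases, then GNAAC), which includes the full one, was in 4 genes (with B9d2; 9.09%), beside 1.03% of tested genes and 0.804% of windows. Its left arm GTTGCC, which also lies in each of those 4 matches, was in 19 of 44 genes (43.2%), beside 14.6% of tested genes and 12.5% of windows. The Gli motif GGGTGGTC was in 0 of 44 genes (1.11% of tested genes and 0.807% of windows), and the cAMP response element TGACGTCA was in 1, Ift57 (3.45% of tested genes and 1.79% of windows). A match describes the letters and does not show that a factor binds.

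The windows of the 4 X-box genes are shown with the match in capitals, 5′ to 3′ on the gene's strand. Bbs7 (chr3:36613390-36613639, minus strand) and Mks1 (chr11:87852965-87853214, plus strand) are given for the 250 bases before the start, with the match beginning at positions -121 and -24, where 0 is the start site. Tctn1 (chr5:122264411-122264440, minus strand) and B9d2 (chr7:25680788-25680817, plus strand) are given for 30 bases around matches that begin at positions 36 and 16.

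Bbs7: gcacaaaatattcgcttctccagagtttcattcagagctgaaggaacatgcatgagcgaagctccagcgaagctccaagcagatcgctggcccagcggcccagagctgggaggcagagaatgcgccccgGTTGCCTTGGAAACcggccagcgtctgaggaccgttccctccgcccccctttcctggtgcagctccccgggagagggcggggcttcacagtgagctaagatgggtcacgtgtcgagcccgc

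Mks1: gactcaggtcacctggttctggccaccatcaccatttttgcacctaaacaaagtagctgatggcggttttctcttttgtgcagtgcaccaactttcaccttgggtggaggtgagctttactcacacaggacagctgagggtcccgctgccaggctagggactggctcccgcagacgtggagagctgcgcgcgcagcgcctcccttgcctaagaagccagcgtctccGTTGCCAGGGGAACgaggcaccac

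Tctn1: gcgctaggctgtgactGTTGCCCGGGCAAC

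B9d2: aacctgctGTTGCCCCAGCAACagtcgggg

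These 4 genes did not move alike. Tctn1 and B9d2 rose in SmoM2, Bbs7 did not pass in any model (0.24, −0.05 and −0.08 in SmoM2, Gnas-eKO and PKI; edgeR adjusted p of 0.252, 0.928 and 0.818), and Mks1 fell in PKI. Kif7 and Tulp3, with the highest changes of the 49 genes in SmoM2, had no match to any of these motifs in their windows. GTTGCC was in 11 of the 19 searched genes that rose in SmoM2 and in 8 of the 25 others, but the 5 genes without a window all rose there, so this count leaves out risen genes only.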

How the data were processed

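RNA of 21 tail keratinocyte libraries was sequenced after a stranded mRNA ligation preparation, per the labels' protocols. The authors deposited estimated counts per gene without normalization, of which 33.1% are not whole numbers, and a table of normalized signal, which was used for 1 alternative. The submitters' processing notes name bcl2fastq 2.20, cutadapt 1.18, STAR 2.7.0f, Partek and the build mm10; strand use in counting is not given in the sources used here. The lowest sum of a gene over all libraries is 10 counts, and genes below that are not analysed here. All 49 genes matched GENCODE M21 (GRCm38) by name and start, and ends are given 1 base below those deposited, as annotated there. Exons of 12 members overlap another gene, on the other strand in all 12 and for Bbs12 also on the same strand, so their counts are uncertain. These are Ift57, Ift88, Bbs4, Bbs12, Arl6, Tctn1, Tmem67, Tmem216, Cep290, Kif7, Inpp5e and Ofd1.

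Tests used rounded estimated counts and edgeR 4.0.16 (R 4.3.3): filterByExpr, TMM, the robust quasi-likelihood test and Benjamini-Hochberg adjustment over all genes tested, with calls at an adjusted p under 0.05. SE is the absolute log2 fold change over the square root of F. Differences between models were tested as interaction contrasts on 14 libraries; a batch shift common to Con and BCC cancels there, one that scales the change stays in. CPM uses TMM-scaled library sizes of the 21 libraries. The floor of 3 counts covers counting error only, since PCR copies of a molecule were not told apart. Each library has its own ID in the file headers; if these are not separate mice, p-values measure only the spread between samples. All pairs of libraries within a group differed by more than sampling noise (lowest chi-square over its degrees of freedom 8.33). The scripts were tested on simulated data.

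The members, lists and naming rule were chosen with earlier results of these data known. Named with values were members called in the same direction in at least 2 models, called in a difference between models, or among the 5 highest or lowest called in a model, ranked to 30 with 10 members named always. Members outside this rule were named after their values were seen, to account for counts. Alternatives were DESeq2 1.42.0 (size factors, Wald test), 2 other filters, a joint fit, the replicate number as a block, limma 3.58.1 on the deposited signal (log2, pseudocount 1) and leaving out each library. Promoter windows were RefSeq's. Results for 2 genes of the further and marker lists are not reported here.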

Additional observations from a re-analysis of the deposited data

Results flagged for a closer look

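In 4 of 90 groups of 4 BCC libraries of named genes, 1 library stood far from the other 3, where chance gives about 1 in 20. Ift172 was at 36.8 CPM in Gnas-eKO BCC replicate 4, with 27.8 to 28.1 CPM in the others. Dync2li1 was at 6.3 CPM in PKI BCC replicate 4, with 4.31 to 4.44 CPM in the others. Arl6 was at 18.4 CPM in PKI BCC replicate 4, with 14.8 to 15.1 CPM in the others. Tctn3 was at 8.02 CPM in Gnas-eKO BCC replicate 3, with 12.0 to 12.8 CPM in the others.

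The BCC effects of 2 models differed by the interaction test (edgeR, adjusted p under 0.05) as follows. For PKI minus SmoM2 the IFT-B and IFT-A differences on the log2 scale were −0.83 for Ift27, −0.95 for Ift57, −0.97 for Ift80, −0.85 for Ift81, −0.82 for Wdr19 and −0.69 for Ttc21b, and that of the motor gene Dync2li1 was −1.67. The BBSome and helper differences were −1.0 for Bbs1, −0.45 for Bbs9, −1.08 for Bbs10 and −0.49 for Arl6. The transition zone differences were −0.77 for Mks1, −0.86 for Tctn1, −0.66 for Tctn2, −0.58 for Tctn3, −0.94 for Tmem67, −0.82 for Tmem216 and −0.61 for Tmem231. Those of the membrane and tip genes were −1.18 for Kif7, −0.58 for Arl13b, −0.43 for Inpp5e and −1.45 for Tulp3. For PKI minus Gnas-eKO they were −0.99 for Ift81, −0.75 for Mks1, −1.38 for Tctn1 and −0.53 for Inpp5e.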

How the results depend on the processing

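The median change of the 49 genes kept its sign in each model under every alternative: without 1 library it ran from 0.33 to 0.48 in SmoM2, 0.06 to 0.20 in Gnas-eKO and −0.18 to −0.04 in PKI. Members called ran from 18 to 25 in SmoM2, 0 to 8 in Gnas-eKO and 3 to 9 in PKI without 1 library, and from 11 to 23 for PKI minus SmoM2, 1 to 6 for PKI minus Gnas-eKO and 0 to 1 for Gnas-eKO minus SmoM2. Over all genes those fits called 2059 to 2468 higher and 1554 to 2159 lower in SmoM2. In Gnas-eKO these were 0 to 1192 and 0 to 718, and in PKI 2221 to 2982 and 1836 to 2484. For the differences, in the same order, they were 1679 to 2203 and 1695 to 2228, 344 to 1263 and 329 to 1249, and 6 to 36 and 8 to 43. DESeq2's Wald test called 6 members in Gnas-eKO (all genes: 1113 higher and 422 lower of 16409) and 1 for Gnas-eKO minus SmoM2 (104 and 108 of 17151). The joint fit called 9 in Gnas-eKO (1573 and 1071 of 17695). Without a filter 2 were called for PKI minus Gnas-eKO (695 and 607 of 23703). The cause was not tested. Same-numbered libraries share only a number (correlations of their deviations −0.111 to 0.242). In the replicate block fit 20 members were called in SmoM2, 2 in Gnas-eKO, 9 in PKI (2 higher and 7 lower), 23 for PKI minus SmoM2, 2 for PKI minus Gnas-eKO and 0 for Gnas-eKO minus SmoM2 (edgeR). Over all genes that fit called 1984 higher and 1444 lower of 16370 in SmoM2. In Gnas-eKO these were 128 and 7 of 16409, and in PKI 3122 and 2866 of 16397. For the differences, in the same order, they were 1953 and 2005 of 17261, 465 and 460 of 17254, and 9 and 12 of 17151.

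Of 966 single-gene values in fits of all libraries 882 kept direction and side of the threshold, 45 lost it, 25 gained it and 14 changed sign; without 1 library these were 967, 188, 13 and 29 of 1197. Every change of sign was in a value that did not pass. In Gnas-eKO Bbs9 (0.0022) became −0.000949 with DESeq2's size factors, −0.000702 with its Wald test, −0.00812 without a filter, −0.00816 in the joint fit, −0.157 with the replicate block and −0.0395 in limma. With the replicate block Dync2h1 was −0.147, Ift172 −0.0362, Tmem67 −0.0329, Ttc21b −0.0623 and Wdr19 −0.000294 in Gnas-eKO and Ift57 0.0056 in PKI. In limma Dync2h1 was −0.0176 and Tmem67 −0.0152 in Gnas-eKO. Without 1 library the values that changed sign ran, in Gnas-eKO, from −0.13 to 0.16 for Bbs9, −0.11 to 0.23 for Dync2h1, −0.0405 to 0.14 for Ift172, −0.14 to 0.0387 for Ift88, −0.0402 to 0.23 for Tctn3, −0.12 to 0.13 for Tmem67, −0.0666 to 0.27 for Ttc21b and −0.0081 to 0.23 for Wdr19. In PKI they ran from −0.22 to 0.0423 for Arl13b, −0.26 to 0.14 for Cep290, −0.11 to 0.0792 for Ift57, −0.30 to 0.0412 for Ift80, −0.16 to 0.0178 for Tctn3 and −0.14 to 0.16 for Ttc21b.

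Groups of 3 and 4 libraries limit the precision, and so does the spread of the Gnas-eKO BCC libraries. Low genes such as Bbs10 have few counts.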

Other observations

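Motile cilium genes were listed apart from those of the primary cilium. Of 24 such genes 19 were in the table, and the filter was passed by 4 in SmoM2 and in PKI and by 5 in Gnas-eKO; the others lay near the counting floor. Tekt2, a tektin of ciliary microtubules, rose in SmoM2 (4.86 to 9.26 CPM on average, log2 fold change 0.94, edgeR adjusted p = 0.00449) and fell in PKI (2.77 to 1.39 CPM, −0.98, edgeR adjusted p = 0.018), with a value of 0.66 in Gnas-eKO (edgeR adjusted p = 0.266). Rsph9, a radial spoke protein, rose in SmoM2 from a mean of 0.517 to 1.84 CPM (1.81, edgeR adjusted p = 0.00768). The summed level of the 19 genes overlapped between BCC and Con in each model, with 22.1 to 36.2 CPM in SmoM2 Con and 25.1 to 39.1 CPM in SmoM2 BCC, for example.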
